A study of Homo sapiens with 4 samples.

Results

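At 319 of 20242 promoters (1.58%), human embryonic stem cells had trimethylated lysine 27 of histone H3 (H3K27me3) above a set limit. Trimethylated lysine 4 (H3K4me3) was at or below that limit, all before the H3K27 demethylase JMJD3c was induced. The name H3K27me3-only stands for these limits and does not mean that H3K4me3 was absent. These H3K27me3-only promoters were selected on measured values, namely an H3K27me3 signal above 20 and an H3K4me3 signal of at most 20 in the uninduced cells. Their levels in those cells, and every ratio to those levels, are therefore a description. Of the other promoters, 1907 (9.42%) were above 20 for both marks and are called bivalent, 10980 (54.2%) were H3K4me3-only and 7036 (34.8%) were unmarked.

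The study asked how a forced loss of H3K27me3 changes the chromatin of human pluripotent stem cells. It used JMJD3c-hESCs, a stable derivative of SEES-3, a line of human embryonic stem cells that here also expressed the reverse Tet-transactivator, with a doxycycline (Dox)-inducible, HA-tagged catalytic domain of JMJD3 (JMJD3c), inserted by piggyBac transposition under puromycin selection. Control cells carried the same transgene, and the number of clones behind the 4 libraries is not stated. Chromatin immunoprecipitation sequencing (ChIP-seq) of each mark was performed on untreated cells (−Dox) and on cells treated with Dox at 1 μg/ml (+Dox), collected on day 3. Each of these 4 groups had 1 library, no library was repeated and no test between conditions was possible.

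H3K27me3 is written by Polycomb repressive complex 2, which favours CpG-rich DNA that is not being transcribed, and it is erased by JMJD3 and UTX. H3K4me3 marks promoters that are active or kept ready for activation. In embryonic stem cells most Polycomb-covered developmental promoters carry both marks. By the limits used here, promoters with H3K27me3 alone in −Dox included many HOX genes, which give positions along the body axis their identity. Of 39 HOX promoters, 29 were H3K27me3-only, 9 were bivalent and 1 was unmarked. With counting error taken into account, 15 of the 29 H3K27me3-only HOX promoters still met both limits.

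The 6 promoter sequences below show the range of DNA found in this class, from CpG-rich to nearly CpG-free. Each run ends at the base before the transcription start site (TSS), or before the more upstream of the RefSeq and the deposited start. The bases are from RefSeq (GRCh38.p14), and the coordinates are those of the exact match on GRCh37, the assembly equal to hg19. Capitals mark CG dinucleotides. EVX2, PRDM13 and HOXA7 were among the promoters with the highest −Dox H3K27me3, LIPK had the lowest CpG content, and CACNG6 and LEKR1 had the lowest +Dox/−Dox ratios of H3K27me3 among members with a −Dox value of at least 30.
EVX2, chr2:176948691-176948940, minus strand: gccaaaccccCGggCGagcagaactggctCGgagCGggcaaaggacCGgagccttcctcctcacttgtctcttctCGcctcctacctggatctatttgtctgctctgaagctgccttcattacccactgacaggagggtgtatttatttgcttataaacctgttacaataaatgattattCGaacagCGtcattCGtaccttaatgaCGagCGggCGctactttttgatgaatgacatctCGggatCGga
PRDM13, chr6:100054459-100054649, plus strand: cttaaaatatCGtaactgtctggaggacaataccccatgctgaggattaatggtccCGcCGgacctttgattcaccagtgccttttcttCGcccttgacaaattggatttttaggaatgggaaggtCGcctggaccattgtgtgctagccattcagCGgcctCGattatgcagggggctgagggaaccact
HOXA7, chr7:27196295-27196544, minus strand: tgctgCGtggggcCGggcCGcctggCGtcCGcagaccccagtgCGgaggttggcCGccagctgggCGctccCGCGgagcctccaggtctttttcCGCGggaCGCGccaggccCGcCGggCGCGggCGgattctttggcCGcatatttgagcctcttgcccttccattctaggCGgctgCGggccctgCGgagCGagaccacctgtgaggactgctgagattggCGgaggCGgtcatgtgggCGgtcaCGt
LIPK, chr10:90465756-90466005, plus strand: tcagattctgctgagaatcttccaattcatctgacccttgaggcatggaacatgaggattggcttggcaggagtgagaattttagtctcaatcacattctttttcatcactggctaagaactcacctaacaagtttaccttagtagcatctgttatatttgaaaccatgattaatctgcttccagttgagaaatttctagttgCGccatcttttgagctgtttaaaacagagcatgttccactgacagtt
CACNG6, chr19:54494641-54494890, plus strand: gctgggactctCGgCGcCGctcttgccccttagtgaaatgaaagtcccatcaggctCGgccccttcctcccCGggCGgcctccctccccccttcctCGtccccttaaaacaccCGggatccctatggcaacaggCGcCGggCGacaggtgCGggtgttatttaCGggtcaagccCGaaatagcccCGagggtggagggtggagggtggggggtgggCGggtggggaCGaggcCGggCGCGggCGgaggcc
LEKR1, chr3:156543892-156544095, plus strand: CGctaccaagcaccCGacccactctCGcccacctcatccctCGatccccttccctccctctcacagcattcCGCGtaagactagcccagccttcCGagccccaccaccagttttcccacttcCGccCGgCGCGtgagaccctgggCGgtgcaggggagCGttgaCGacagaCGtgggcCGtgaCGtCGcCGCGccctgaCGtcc
The HOXA7 run of 250 bases held 28 CG dinucleotides and the LIPK run of equal length held 1. The EVX2 run held 14, and it was the only one of the 6 with the letters TATAAA on either strand. The CACNG6 run held 21. The runs of PRDM13 (191 bases) and LEKR1 (204 bases) held 7 and 21.

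Values below are coverage scaled by the authors to library size and summed over 3 kb on each side of the TSS. Judged by the smallest step between values, the threshold of 20 was worth about 15.8 H3K27me3 reads and 20.5 H3K4me3 reads in −Dox, and 16.0 and 15.8 reads in +Dox. Ratios of single promoters are given with 95% intervals from these approximate reads, and shares with 95% Wilson intervals. None of the intervals covers more than counting error or how promoters spread. They compare libraries, not conditions. As a check of the label, 13 of 14 stem cell marker promoters had H3K4me3 above 20 in −Dox, with a median of 123, and 13 in +Dox. The exception was POU5F1, measured 10049 bp away from its canonical start. Of 10 promoters of genes of differentiated cells, 1 (COL1A1) was above 20 in −Dox.

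The class was heterogeneous in both marks. Its −Dox H3K27me3 ranged from 20.2 to 274 with a median of 39.9. Its −Dox H3K4me3 ranged from 0.855 to 19.9 with a median of 13.96, compared with 45.3 at bivalent promoters and 4.56 at unmarked ones. At 143 members the H3K4me3 value was above 15, and at 91 it was at most 10. Counting error alone left the H3K4me3 value of 107 members at or below 20 at the upper end of its interval. It left the H3K27me3 value of 205 members above 20 at the lower end, and 56 members met both conditions, 15 of them HOX genes. Just inside the H3K27me3 threshold were SPEF1, HAPLN2 and ACTC1, each at 20.2, and just outside were OR4X1, ATP5EP2 and AP000350.4, each at 19.8. Just inside the H3K4me3 limit were GPR4, GIPC3 and OXTR at 19.9, and just outside it, as bivalent promoters, were FGR, CHAT and PPP2R2C at 20.2.

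**Figure D1:**
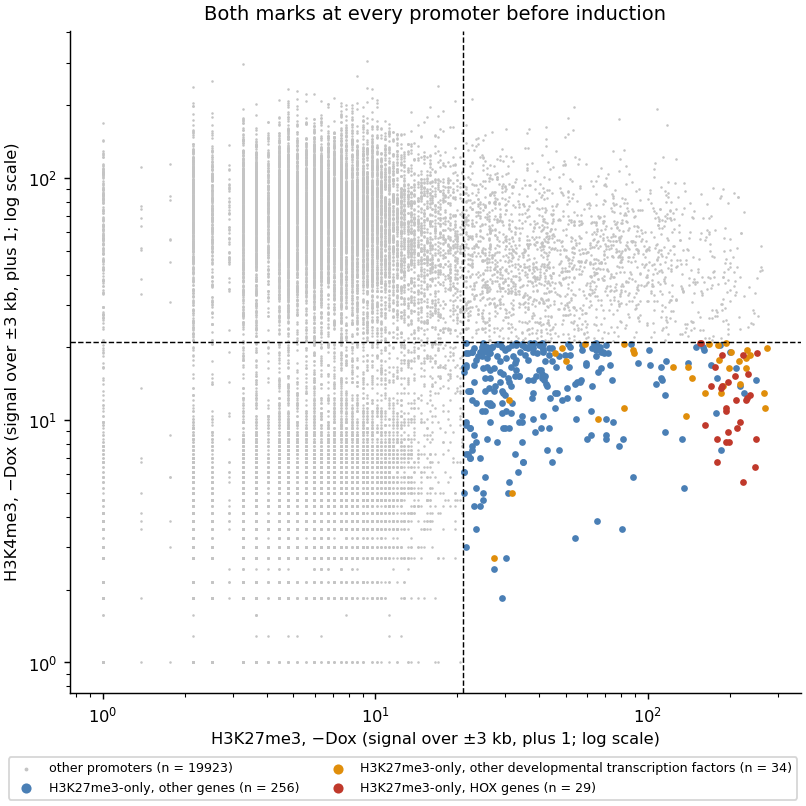
H3K27me3 against H3K4me3 signal in −Dox cells at all 20242 promoters, each value plus 1 on log axes, with dashed lines at the threshold of 20. The 319 H3K27me3-only promoters fill the lower right field, where the HOX genes (red) sit at the right with a median H3K27me3 of 196 and the 256 promoters of other genes (blue) are mostly near the threshold.

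Listed developmental transcription factors made up 63 members, 29 HOX genes and 34 others, and held the highest levels. Of the 378 promoters of such factors in the files, 16.7% were members and 178 were bivalent. The median −Dox H3K27me3 was 196 at the HOX members, 165 at the other factors and 33.5 at the 256 remaining members. At 76 members (23.8%) it was at least 100, compared with 304 bivalent promoters (15.9%). In +Dox, the 50 promoters with the most H3K27me3 of all 20242 included 27 members, 13 of them HOX genes, and 23 bivalent promoters. The lowest of the 50 was at 251.3.

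The most heavily marked members also had high H3K27me3 in +Dox. The promoter of EVX2, a homeobox gene beside the HOXD cluster, had an H3K27me3 of 274 in −Dox and 312 in +Dox, with H3K4me3 of 18.8 and 13.05. PAX1, a paired box factor of the developing skeleton, had 270 and 343, with H3K4me3 of 10.3 and 11.9. PRDM13, a factor of spinal cord neurons, had 265 and 296, with H3K4me3 of 11.97 and 3.36. In these 3 genes the +Dox library was the higher one for H3K27me3, and the interval of the ratio excluded 1 only for PAX1 (1.272, 1.06 to 1.53).

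PDX1, the master regulator of the pancreas, had 250 in −Dox and 336 in +Dox, a ratio of 1.35 (1.12 to 1.63). PAX9, a factor of the teeth and pharyngeal pouches, had 236 and 330, and ONECUT3 had 232 and 339. TBX2, a T-box factor of the heart and limb, had 201 and 332, the highest ratio among members with a −Dox value of at least 30 (1.65, 1.35 to 2.02). PAX9 was measured 4292 bp away from its canonical start. Among the 34 non-HOX factors, H3K27me3 was higher in +Dox at 23 (29 with both libraries scaled to the same total). The share over all promoters with a −Dox value above 0 was 43.4% as deposited and 53.1% with the same total. The ratio interval lay above 1 at 10 of the 34, compared with 1.55% of all promoters, and below 1 at 3, compared with 7.14%. Among the 178 bivalent promoters of listed factors it lay above 1 at 17 and below 1 at 57. EVX1, the homeobox gene beside the HOXA cluster, was one of the 10 non-HOX factors with an interval above 1, with 188 and 271.

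The factors with the lowest ratios, GBX1 and PAX4, were 2 of the most weakly marked. GBX1, a homeobox gene of the hindbrain, had 30.05 in −Dox and 5.97 in +Dox, and PAX4, a factor of the pancreatic islets, had 30.8 and 6.71. NR2F2, an orphan nuclear receptor of the mesenchyme and veins, had 145 and 86.5, a ratio of 0.60 (0.44 to 0.81). These 3 were named after their values were seen. The deposited starts of GBX1 and NR2F2 lie 7051 bp and 4762 bp from the canonical ones.

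The HOX family contributed 29 of its 39 promoters, with 9 more bivalent and 1, HOXB1, unmarked. Every one of the 29 stayed H3K27me3-only in +Dox, and each had a −Dox H3K27me3 of at least 154. H3K27me3 was above 20 in +Dox at all 49 members with −Dox values of 100 to 200 and all 27 with 200 to 300. The same held at all 270 and all 34 bivalent promoters in these ranges. The median H3K27me3 of the 29 HOX members was 196 in −Dox and 246 in +Dox, and their median H3K4me3 was 11.1 and 7.83. H3K27me3 was higher in +Dox at 20 of the 29 (43.4% of all promoters), and at 28 with both H3K27me3 libraries scaled to the same total (53.1% of all promoters). That scaling takes the H3K27me3 sum as equal in both libraries, whereas the paper's immunoblots showed less total H3K27me3 after Dox. Both counts are therefore of relative levels. The ratio interval lay above 1 at 13, compared with 1.55% of all promoters, and below 1 at 1 (HOXD11), compared with 7.14%. With the same total it lay above 1 at 18 and below 1 at 0. Most of all promoters had few H3K27me3 reads, which makes their intervals wide. At bivalent promoters with −Dox values of 200 to 300 the interval, as deposited, lay above 1 at 12 of 34 and below 1 at 2. At those with 100 to 200 it lay above 1 at 15 of 270 and below 1 at 104.

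The HOX clusters are described by their ranges and by how many members were higher in +Dox. The HOXA members ran from 154 to 250 in −Dox and from 149 to 382 in +Dox, with 6 of 7 higher as deposited and 7 of 7 with both libraries scaled to the same total. The HOXB members ran from 180 to 232 and from 189 to 279, with 6 of 7 higher (7 of 7 with the same total). The HOXC members ran from 170 to 250 and from 190 to 366, with 6 of 8 higher (8 of 8 with the same total). In the HOXD cluster the ranges were 156 to 229 and 149 to 300, and 2 of 7 (HOXD4 and HOXD9) were higher as deposited, but 6 of 7 with the same total. The difference between clusters was not tested.

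HOXA7 had 250 in −Dox and 382 in +Dox, the highest +Dox value among the members, while its H3K4me3 went from 17.95 to 3.36. Its H3K27me3 ratio was 1.53 (1.270 to 1.83) and its H3K4me3 ratio 0.19 (0.04 to 0.74). HOXC12 had 250 and 366, HOXC9 had 218 and 324, and HOXA9 had 186 and 293. The starts deposited for HOXC9 and HOXA9 lie 5266 bp and 4961 bp from the canonical starts. HOXA2 had 248 and 280, HOXC10 had 237 and 249, HOXB9 had 232 and 240 and HOXA3 had 230 and 269. These 4 were also among the 12 members with the most −Dox H3K27me3, and their ratio intervals included 1. HOXA3 was measured 12377 bp away from its canonical start, in a window that overlaps that of a bivalent promoter. HOXD11, named after its values were seen and measured 3064 bp away from its canonical start, had 222 in −Dox and 174 in +Dox. Within the clusters some windows overlap and share reads, as at HOXA10 and HOXA11, HOXB3 and HOXB5, HOXD10 and HOXD11, and HOXC6, HOXC9 and HOXC10, so these members are not separate measurements.

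**Figure D2:**
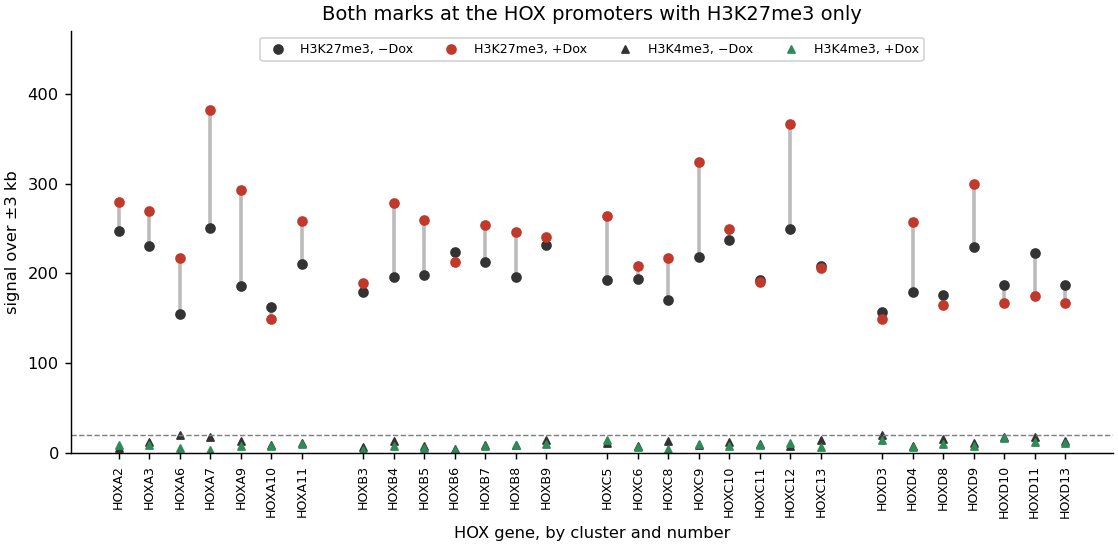
Signal of both marks (y axis, summed over 3 kb on each side of the TSS) at the 29 H3K27me3-only HOX promoters, ordered by cluster and number, with circles for H3K27me3, triangles for H3K4me3, bars joining −Dox and +Dox H3K27me3 and a dashed line at 20. Red +Dox circles lie above the black −Dox ones at 20 promoters (28 with both libraries scaled to the same total), with the longest bar at HOXA7 (250 to 382), and all triangles stay at or below 20.

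The 256 members outside the list of developmental transcription factors had lower H3K27me3 than the listed factors in both libraries, and mostly lower values in +Dox than in −Dox. Their median was 33.5 in −Dox and 17.7 in +Dox, a median log2 ratio of −0.92 (−1.06 to −0.80). A ratio below 0.5 was found at 119 of them (46.5%), against 21.5% of all promoters. At bivalent promoters with −Dox values of 20 to 30 and 30 to 50 the share was 51.2% and 49.9%. Members were selected on their −Dox values, so nothing is read from the differences to all promoters. H3K27me3 was higher in +Dox at 32 (51 with the same total), against 43.4% (53.1%) of all promoters. The ratio interval lay below 1 at 125, against 7.14% of all promoters and 927 of the 1907 bivalent ones. It lay above 1 at 2 (PDX1 and LONRF3), a share below the 1.55% of all promoters. LONRF3, a RING finger gene on the X chromosome, had 80.2 and 117. The list was made by gene symbol and is not complete, so the 256 still include regulators such as PDX1, FEV, ZEB2 and FIGLA, the latter 3 named after their values were seen. FEV had 200 in −Dox and 214 in +Dox, ZEB2 had 65.8 and 28.0 and FIGLA had 69.2 and 94.3.

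The 8 lowest ratios among members with a −Dox value of at least 30 ran from 0.12 to 0.18. CACNG6, a gamma subunit of voltage-gated calcium channels, had 33.5 in −Dox and 4.10 in +Dox, a ratio of 0.12 (0.02 to 0.37), with H3K4me3 of 19.4 and 22.0. LEKR1 had 40.3 and 5.97, with H3K4me3 of 19.7 and 26.8. OR10AD1, an olfactory receptor gene, had 32.3 and 4.85. SCML2, a Polycomb-related gene on the X chromosome, had 31.9 and 5.22, and NUDT19 had 30.8 and 5.59. The 5 +Dox values lay between 4.10 and 5.97, and the median of all promoters was 5.97. SKAP2, RPH3A and AP000769.1 complete the 8 lowest, with ratios of 0.16, 0.18 and 0.15. The deposited starts of SKAP2 and RPH3A lie 130649 bp and 216652 bp from the canonical ones.

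Some members with more H3K27me3 also had low ratios, and the 3 that follow were named after their values were seen. ANKRD1, a cardiac ankyrin repeat gene, had 115 in −Dox and 42.9 in +Dox, a ratio of 0.37 (0.24 to 0.55). CER1, a secreted antagonist of Nodal, BMP and Wnt made by the anterior endoderm, had 87.5 and 24.98, a ratio of 0.29 (0.17 to 0.48). WIF1, a secreted Wnt inhibitor, had 71.9 and 15.7, a ratio of 0.22 (0.11 to 0.42). H3K4me3 at the 3 genes remained low, at 7.98 and 8.20 for ANKRD1, 4.84 and 8.95 for CER1 and 15.96 and 13.05 for WIF1.

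Of 155 secreted signals of development in the files 6 were members, and 0 were higher in +Dox as deposited and 2 (FGF5 and WNT10A) with the same total. The corresponding shares were 23.5% and 33.9% over all members, and 43.4% and 53.1% over all promoters. FGF5, a fibroblast growth factor of the early epiblast, had 210 in −Dox and 195 in +Dox. RSPO1, an enhancer of Wnt signalling, had 149 and 122, and WNT10A, a ligand of skin and teeth, had 100 and 88.7. At these 3 the ratio interval included 1, and of the 6 it lay below 1 at CER1 alone. RSPO4 (34.6 and 24.2) and DHH (23.2 and 9.69) were the others. The list was made by gene symbol and is not complete, and WIF1, described above, is not in it.

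Ion channels had 7 members of 197 promoters, with a median ratio of 0.57 and a range of 0.12 to 1.37. KCNA4, a voltage-gated potassium channel, had 115 and 65.2, a ratio of 0.57 (0.39 to 0.80). KCNA7 of the same family had 41.1 and 56.3. The ratio interval lay below 1 at 4 of the 7 and above 1 at 0, with shares of 7.14% and 1.55% over all promoters. Neurotransmitter and peptide receptors had 11 members of 193, with a median ratio of 0.53. Among them OPRD1, the delta opioid receptor, had 64.7 and 38.4, and GRIN3A, an NMDA receptor subunit, had 63.5 and 51.1. The interval lay below 1 at 6 of the 11 (7.14% of all promoters). Over all 319 members it lay below 1 at 129. It did so at 42 of the 104 members with −Dox values of 20 to 30 and at 51 of the 88 with 30 to 50. Nothing is read about the 2 lists from these counts.

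Neuropeptides and hormones had 5 members of 77 and a median ratio of 0.69. GRP, the gastrin-releasing peptide, had 160 in −Dox and 158 in +Dox while its H3K4me3 went from 18.5 to 3.73. UCN, a stress peptide, had 66.6 and 63.8, and GAST, the gastrin gene, had 53.2 and 22.7. Immune genes had 17 members of 499 and a median ratio of 0.56, with 1 of the 17 higher in +Dox (2 with the same total). The share higher as deposited was 43.4% over all promoters. It was 8.65% and 10.2% at members with −Dox values of 20 to 30 and 30 to 50. TNFSF8, the CD30 ligand, had 79.9 and 44.7 with H3K4me3 of 2.56 and 2.61.

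Of the members with a −Dox H3K27me3 of at least 40, the 5 with the least −Dox H3K4me3 came from several groups. GAST (2.28), TNFSF8 (2.56) and VPREB1 (2.85), a surrogate light chain gene of B cell precursors, had the lowest H3K4me3, before the clone-named RP1-228P16.5 (4.27) and HOXB6 (4.56). VPREB1 had H3K27me3 of 64.3 and 34.3, and RP1-228P16.5 had 135 and 51.5. HOXB6 had 224 and 213, with H3K4me3 of 2.61 in +Dox. The CpG-poor LIPK, a lipase gene of the skin, had H3K27me3 of 21.7 and 17.2 and H3K4me3 of 6.55 and 1.49.

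The other lists held few members. Other G protein coupled receptors had 4 of 192 (median ratio 0.52), among them GPR101 at 63.9 and 73.5 and GPR4 at 63.5 and 20.1. Solute carriers and ABC transporters had 6 of 465 (0.61), cell adhesion 3 of 153 (0.53), collagens and matrix 3 of 152 (0.54), zinc finger genes 5 of 553 (0.40) and olfactory receptors 3 of 382 (0.34). Antisense, long noncoding or clone-named genes had 22 of 1952 (0.45), and keratins had 0 of 147. The median ratio was 0.59 over all members, 0.57 over bivalent promoters and 0.90 over all promoters. Members were selected on their −Dox values, so nothing is read about the lists from their ratios. In none of the lists stood 164 members.

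A pair of gene groups was added after the values had been seen. All 5 promoters of the alpha globin cluster were members. HBA1 had 69.6 in −Dox and 76.4 in +Dox, HBQ1 had 62.4 and 70.1 and HBA2 had 33.8 and 32.4. The embryonic HBZ had 35.4 and 17.9, and HBM, measured 12086 bp away from its canonical start, had 31.2 and 18.6. HBA1 and HBA2 are near-identical copies, and the HBA1 window overlaps those of HBA2 and HBQ1, so these values are not separate measurements. Of 28 meiosis and germ cell genes 6 were members, and 5 of the 6 had a ratio below 0.5, against 21.5% of all promoters and 58.7% and 48.9% of members with −Dox values of 20 to 30 and 30 to 50. The cohesin subunit SMC1B had 36.9 and 7.08, HENMT1, a piRNA methyltransferase, had 56.7 and 12.7, and the sperm lactate dehydrogenase LDHC had 23.96 and 4.85.

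**Figure D3:**
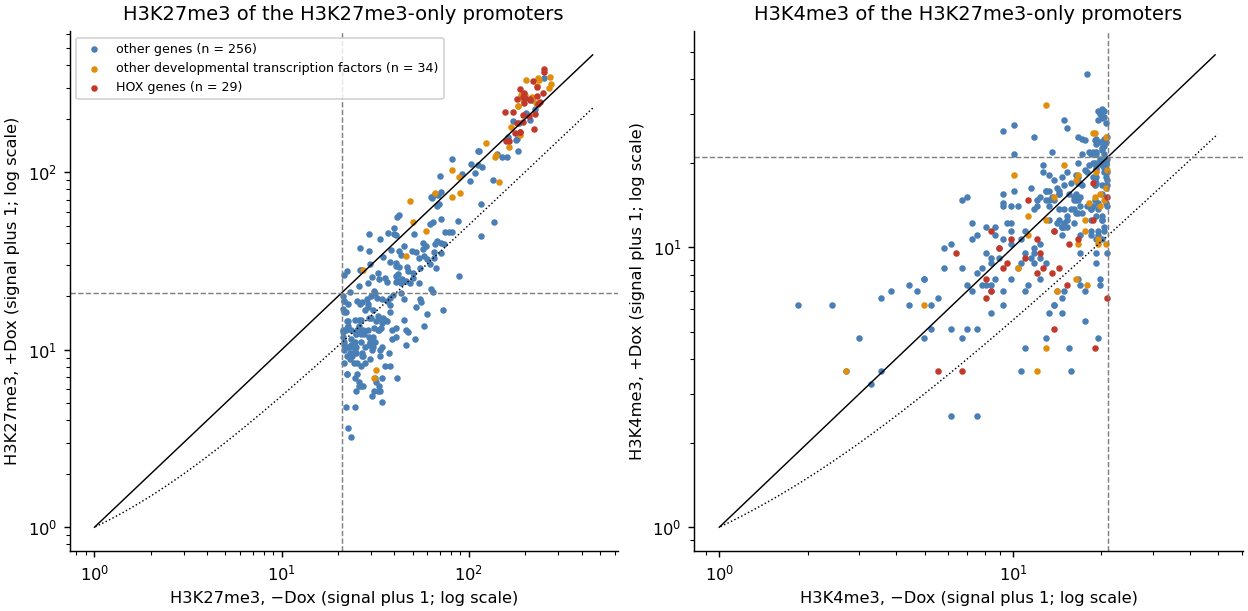
H3K27me3 (left) and H3K4me3 (right) of the 319 members in −Dox (x axis) and +Dox (y axis) cells, each value plus 1 on log axes, with a solid line at equal values, a dotted line at a ratio of 0.5 and dashed lines at 20. The HOX genes lie around or above the line of equal H3K27me3 with medians of 196 and 246, and the remaining genes lie mostly below it with medians of 33.5 and 17.7.

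Over all members the median H3K27me3 was 39.9 in −Dox and 23.5 in +Dox, a median log2 ratio of −0.75 (−0.84 to −0.58). The ratio was below 0.5 at 121 members (37.9%), against 21.5% of all promoters. It was above 1 at 75 (23.5%), against 43.4%, and at 108 with the same total, against 53.1%. Over all promoters the median log2 ratio was −0.15 as deposited and 0.08 with the same total, a shift that took the median of the members to −0.52. The ratio interval lay below 1 at 129 members and above 1 at 25, and the shares over all promoters were 7.14% and 1.55%. The selection used the −Dox values of these ratios, so nothing is read from these differences. Bivalent promoters had a median log2 ratio of −0.81 (−0.86 to −0.76), with an interval that overlaps that of the members. H3K27me3 was above 20 in +Dox at 174 members (54.5%, 49.1 to 59.9), against 6.73% of all promoters. At bivalent promoters, selected by the same H3K27me3 limit in −Dox, the share was 58.3%. Nothing is read from the difference to all promoters.

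The ratio varied with the level before induction, in the members and in bivalent promoters. At 104 members with a −Dox value of 20 to 30 the median ratio was 0.46, at 88 with 30 to 50 it was 0.51 and at 51 with 50 to 100 it was 0.60. It was 0.98 at the 49 members with 100 to 200 and 1.19 at the 27 with 200 to 300. The corresponding ratios of bivalent promoters were 0.49, 0.50, 0.60, 0.82 and 1.18. Without the HOX genes the 2 upper ranges of the members had ratios of 0.92 (33 promoters) and 1.21 (14 promoters). The selection itself used the −Dox value. When 336 promoters were instead chosen by the same limits in +Dox, their median log2 ratio was 0.07. The part of selection in the ratios near the threshold cannot be told apart from a change with Dox in single libraries.

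**Figure D4:**
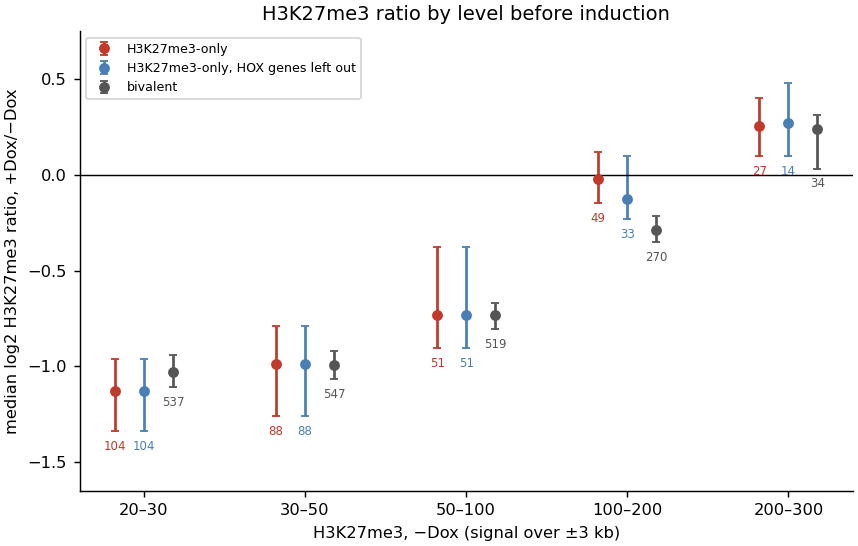
Median log2 +Dox/−Dox ratio of H3K27me3 (y axis) in 5 ranges of −Dox H3K27me3 (x axis) for the members, the members without HOX genes and bivalent promoters, with 95% order-statistic intervals over promoters and the number of promoters below each bar. All 3 series run from near −1 at 20 to 30 to about 0.26 at 200 to 300 (median log2 ratio of the members −1.13 and 0.26).

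The median H3K4me3 of the members was 13.96 in −Dox and 11.6 in +Dox, and the median log2 ratio was −0.08 (−0.17 to 0.00). It was above 20 in +Dox at 40 members (12.5%, 9.35 to 16.6). The share over all promoters was 62.7%, but members were selected for low H3K4me3 in −Dox, so nothing follows from that difference. Of the unmarked promoters, which met the same H3K4me3 limit, 2.53% were above 20 in +Dox, with a median H3K4me3 of 4.56 in −Dox. The interval of the H3K4me3 ratio lay above 1 at 5 members, compared with 1.69% of all promoters, and below 1 at 8, compared with 2.96%. RAB33A, a small GTPase gene on the X chromosome, had the highest H3K4me3 in +Dox, from 16.8 to 40.6, with H3K27me3 of 22.4 and 9.69. FOXF2, a forkhead factor of the mesenchyme, went from 11.97 to 31.3, a ratio of 2.62 (1.30 to 5.89), while its H3K27me3 was 186 and 162.

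The 5 members above 1 (1.57%) and the 8 below 1 (2.51%) were thus no larger a share than among all promoters. Those not yet described are named here after their values were seen. ERN2, TRIM38 and IL12RB2 were the others above 1. ERN2, a stress sensor of the gut epithelium, had H3K4me3 of 9.12 in −Dox and 26.5 in +Dox. TRIM38, a ubiquitin ligase, had 8.26 and 24.98, and IL12RB2, an interleukin receptor chain, had 10.8 and 23.9. The 8 members below 1 were HOXA7, HOXA6, GRP, SLC1A6, CCDC105, KCNA7, NR0B1 and ACTC1. Windows of SLC1A6 and CCDC105 overlap. ZFP30, PDE1B and CAMK1 had +Dox H3K4me3 of 30.2, 29.8 and 29.8, and their ratio intervals included 1.

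By the same limits in +Dox, 156 members (48.9%, 43.5 to 54.4) were still H3K27me3-only and 123 (38.6%, 33.4 to 44.01) were unmarked. A further 22 (6.90%) were H3K4me3-only and 18 (5.64%) were bivalent. Those still H3K27me3-only comprised all 29 HOX members, 28 of the 34 other factors and 99 of the 256 remaining genes. These 3 groups had median −Dox H3K27me3 values of 196, 165 and 33.5. The unmarked ones comprised 121 of those 256 genes and 2 of the 34 factors. Since members had at most 20 for H3K4me3 by selection, a member at or below 20 for H3K27me3 in +Dox counts as unmarked unless its H3K4me3 crossed the limit as well. Of the 336 promoters that were H3K27me3-only in +Dox, 156 were members, 138 had been bivalent, 37 unmarked and 5 H3K4me3-only.

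By the CpG content of their windows, which the selection did not use, the members were close to the median of all promoters, between bivalent and unmarked ones. The median CpG observed/expected ratio over 3 kb on each side of the TSS was 0.43 in the 292 members that could be placed on GRCh37. It was 0.44 over all placed promoters, 0.55 at bivalent, 0.49 at H3K4me3-only and 0.25 at unmarked promoters. The HOX members (0.54) and the other developmental factors (0.61) had higher ratios than the remaining members (0.40). EVX2 was at 0.75, HOXA7 at 0.59, CER1 at 0.20 and LIPK at 0.12.

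Members with more CpG had more H3K27me3 in both libraries. At the 51 members with a ratio below 0.3 the median H3K27me3 was 30.05 in −Dox and 12.3 in +Dox. At the 82 with a ratio of at least 0.5 it was 86.7 and 96.9. Without HOX genes the latter were 63 promoters at 62.4 and 45.5. The rank correlation of the CpG ratio with +Dox H3K27me3 was 0.45 over 292 members, 0.39 over the 263 that are not HOX genes and 0.25 over 1746 bivalent promoters. These promoters share the same 2 libraries, and the part of base composition in the counts was not tested.

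**Figure D5:**
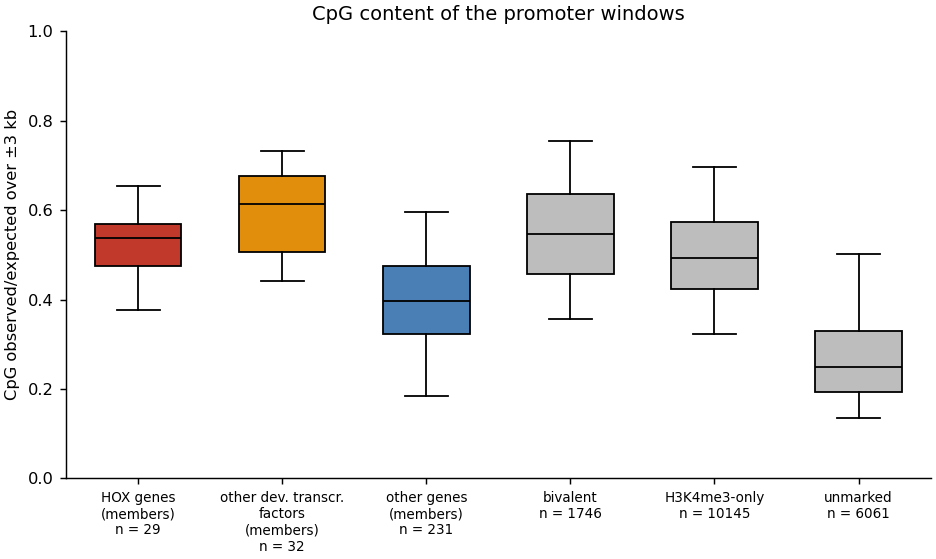
CpG observed/expected ratio over 3 kb on each side of the TSS (y axis) for 3 groups of members and the other promoter classes, with boxes at the quartiles, a line at the median and whiskers at the 5th and 95th percentiles. The medians are 0.54 for HOX genes, 0.61 for other developmental transcription factors, 0.40 for the remaining members, and 0.55, 0.49 and 0.25 for bivalent, H3K4me3-only and unmarked promoters. The median over all placed promoters, which is not drawn, is 0.44.

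Short promoter motifs were searched on both strands from 250 bases before to 50 bases after each placed start. TATAAA was found at 12.7% of members, 8.36% of bivalent and 9.97% of all promoters. CCAAT was found at 32.2%, 29.6% and 35.1%, and GGGCGG at 52.1%, 73.3% and 56.4%. A match is no evidence of a bound factor.

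The placed members lay mostly alone. They formed 274 loci, of which 14 held 2 or more members and 32 members together. At 249 members no other promoter window overlapped, 4 windows overlapped a bivalent and 3 an H3K4me3-only one. The X chromosome held 17 members (5.82%, against 3.996% of all placed promoters) and chromosome 19 held 28 (9.59%, against 7.38%). By annotation 306 members were protein-coding and 8 long noncoding. The deposited start was within 500 bp of the canonical start at 82.2% of placed members and 82.0% of all placed promoters, but at 65.5% of the HOX members.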

How the data were processed

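ChIP-seq libraries of H3K27me3 and H3K4me3 from JMJD3c-hESCs with or without Dox (1 library each) were analysed at 20242 promoters. For sequencing the authors used a MiSeq in single-end mode. They aligned the reads to hg19 with Bowtie2, removed mitochondrial reads and computed coverage with ngs.plot. The deposited values are signal, the coverage scaled to library size and summed over 3 kb on each side of the TSS, for 1 transcript per gene. The submitters' processing notes also name CASAVA. Versions of Bowtie2 and ngs.plot are not given in the sources used here, and no input library was used here. A profile scaling to the density downstream of transcription ends is named in the methods, and whether it was applied to these values is not stated. Values scaled to library size do not show a change that is equal over the genome.

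The 4 files were joined on gene and transcript identifiers. All values (100%) were whole multiples of a step (0.380, 0.373, 0.285 and 0.373 in H3K27me3 −Dox, H3K27me3 +Dox, H3K4me3 −Dox and H3K4me3 +Dox), which corresponds to libraries of 2629351, 2682085, 3509244 and 2682085 reads. Both +Dox files had the same step, which corresponds to 1 read total for both, and the reason is not stated. Approximate reads per promoter were the value divided by the step and by 3.33, 3.36, 3.43 and 3.39 steps per read. Ratios are +Dox/−Dox with no pseudocount, and promoters at 0 in −Dox were left out. For a single ratio, exact Clopper-Pearson limits were computed on the share of its reads found in +Dox. The reads carry no molecular identifiers and may hold copies of 1 molecule. Medians carry order-statistic intervals.

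Transcripts were placed on GRCh37 with GENCODE 44 (90.1% matched). CpG observed/expected ratios and motifs were computed from that genome. At least 100 bases of a RefSeq promoter, upstream of both starts, were found by unique exact match at 130 members. The 27 members that were not placed have no sequence features. PAX1 and IL36RN, also due to be shown, had no match.

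The members and the 14 gene lists were chosen with earlier results of these data known. Genes named are the 12 members with the most −Dox H3K27me3, the 8 lowest and 8 highest H3K27me3 ratios (−Dox value at least 30), the 5 with the most +Dox H3K4me3, the 5 with the least −Dox H3K4me3 (−Dox H3K27me3 at least 40), up to 3 per list and the 3 nearest each threshold. All other genes named were chosen after their values were seen. Alternatives were other thresholds (10, 30), selection on +Dox or on the mean, 2 scalings, a pseudocount of 5 and 1 promoter per overlapping set. The scripts were checked on simulated data, with Python 3.11.15, NumPy 2.4.6, pandas 2.3.3 and SciPy 1.17.1.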

Additional observations from a re-analysis of the deposited data

How the results depend on the processing

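Of 72 values recomputed under alternative settings, 37 stayed within the interval of the reported value (counts within 1.5 times) and 35 did not. The number of members was 694 with a threshold of 10 for both marks and 91 with an H3K4me3 limit of 10. The median log2 H3K27me3 ratio (−0.75 as reported) was −0.92 with thresholds of 10, −0.55 with 30, −0.91 with an H3K4me3 limit of 10, −0.42 with an H3K27me3 threshold of 30, −0.24 for selection on the mean of both conditions and −0.52 with the same total. It reversed to 0.069 for selection on +Dox. In the same order (10, 30, H3K4me3 limit 10, H3K27me3 threshold 30, +Dox, mean, same total), the share with a ratio below 0.5 was 45.1%, 29.6%, 48.4%, 27.9%, 5.36%, 20.8% and 29.2%, and 28.2% with a pseudocount of 5. The share above 20 for H3K27me3 in +Dox was 6.92%, 74.0%, 45.1%, 74.9%, 100%, 76.7% and 60.8%. The 100% is fixed by the selection.

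The median log2 H3K4me3 ratio was 0.12 with thresholds of 10, 0.17 with an H3K4me3 limit of 10, −0.55 for selection on +Dox, −0.34 on the mean and −0.23 with a median ratio of 1 at low promoters. The share above 20 for H3K4me3 in +Dox was 0.576% with thresholds of 10, 39.4% with 30, 3.30% with an H3K4me3 limit of 10, 0% for selection on +Dox, 4.66% on the mean and 8.78% with the scaling on low promoters. The cause of these differences was not tested, except that changing the selection changes the members. Leaving out HOX genes, or starts over 500 bp from the canonical start, both chosen after seeing the data, left the 5 values within their intervals.

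No paired analysis was possible because no result comes from a test and no group has a second library. Therefore the intervals hold no error between cultures or immunoprecipitations. Near the threshold a promoter rests on about 16 to 20 reads.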
